A study of Mus musculus with 12 samples.

Results

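Proteasome subunit genes were followed in mouse muscle stem cells (MuSCs) over 4 states: freshly sorted, cultured for 2 days, cultured for 5 days, and cultured for 5 days of which the last 3 were under a compressing film. The genes were taken by name, as every gene whose symbol is Psma, Psmb, Psmc or Psmd followed by a number, and 39 of the 55335 genes in the files met this rule. Of these, 34 are constitutive (31 subunits and 3 assembly chaperones that carry subunit names), 3 are the interferon-inducible catalytic subunits of the immunoproteasome (Psmb8, Psmb9 and Psmb10), and 2 are restricted to other tissues (Psma8 to the testis and Psmb11 to the thymus). A level is given as RPKM, the reads of a gene scaled by its exon length and by the TMM-scaled library size. Called genes are those with an adjusted p under 0.05 in edgeR's quasi-likelihood test over 22635 genes. All members but Psma8 had enough reads for this test, so 38 were tested.

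The proteasome is the protease that degrades proteins marked with ubiquitin. Its 20S core is a barrel of stacked rings of alpha and beta subunits, in which Psmb5, Psmb6 and Psmb7 hold the cutting sites, and the 19S cap binds, unfolds and feeds in the substrate. The cap has a ring of ATPases (Psmc genes) and a set of non-ATPases (Psmd genes) that receive ubiquitin chains and remove them. Interferon induces Psmb8, Psmb9 and Psmb10, which can take the places of Psmb5, Psmb6 and Psmb7, respectively, and change which peptides are cut for display on MHC class I. Quiescent MuSCs are small cells with little RNA and slow protein synthesis, and their activation brings growth of the whole protein machinery.

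The cells were sorted by FACS from the hindlimb of Pax7-ZsGreen mice, in which a fluorescent reporter marks Pax7+ cells, at 3 to 6 months of age. Freshly isolated cells (F) went straight from the sorter into TRIzol. 2d-U and 5d-U cells grew uncompressed on plastic coated with Matrigel and fibronectin, in growth medium with FGF, for 2 and 5 days. 2+3d-C cells had the same 2 days without and then 3 days with a silicone film on pillars that limits cell height. Each group has 3 libraries, which are numbered 1, 4 and 5 in F, 1, 2 and 3 in 2d-U cells, 1, 2 and 6 in 5d-U cells and 4, 5 and 10 in 2+3d-C. Neither the labels nor the numbers say which libraries come from separate animals, so p-values measure the spread between these libraries, which may be technical in part.

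Libraries had 12540745 to 62424851 reads on genes. Of 9 MuSC and myoblast markers, Pax7 and Myod1 among them, at most 2 were at 0 in a library, and their summed level was 14820 to 16010 CPM in 2+3d-C and 1978 to 6396 CPM elsewhere. Replicate 6 of 5d-U and replicate 5 of 2+3d-C stood apart, with TMM factors of 0.669 and 0.661 against 0.856 to 1.26 in the other libraries. In these 2 libraries most constitutive members were also highest within their group. Against the mean of its group partners the median log2 difference was 1.41 and 1.42 for the 17 members with shorter exon length and 1.21 and 1.16 for the 17 longer ones. Reads on gene families silent in most tissues, a sign of reads spread along the genome, reached 3.84 to 7.24 per kb in F replicates 4 and 5 and 5d-U replicate 1, 0.641 in 5d-U replicate 6 and at most 0.229 in the other libraries.

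By median level the 34 constitutive genes were lowest in F, high in 2d-U and 5d-U, and intermediate in 2+3d-C. Together they took 0.375 to 0.618% of all reads in F, 1.55 to 1.71% in 2d-U cells, 1.49 to 2.42% in 5d-U cells and 0.548 to 1.11% in 2+3d-C. The median over the 34 genes of the mean level was 44.5 RPKM in F, 127 RPKM in 2d-U cells, 246 RPKM in 5d-U cells and 101 RPKM in 2+3d-C. The same median was 32.0, 241, 426 and 82.0 RPKM over the 3 catalytic subunits and 4.90, 31.8, 64.6 and 8.24 RPKM over the 3 chaperones, the class of lowest level in each group. Single libraries did not all keep this order after TMM scaling. The mean log2 CPM over the 34 genes was 8.52 in 2+3d-C replicate 5, above all 2d-U libraries (8.38 to 8.47) and 5d-U replicate 1 (8.49). In 2+3d-C replicate 4 it was 7.18, close to F replicate 1 (7.17). In the test for any difference among the 4 groups 30 of the 34 were called, where 44.3% of all tested genes were. The other 4 were the alpha subunit Psma3, the ATPase Psmc6, and Psmd1 and Psmd2, the large scaffold subunits of the cap, with adjusted p of 0.133, 0.0654, 0.199 and 0.0883. In bulk RNA a change in the share of cells of a type and a change of RNA per cell cannot be told apart.

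**Figure D1:**
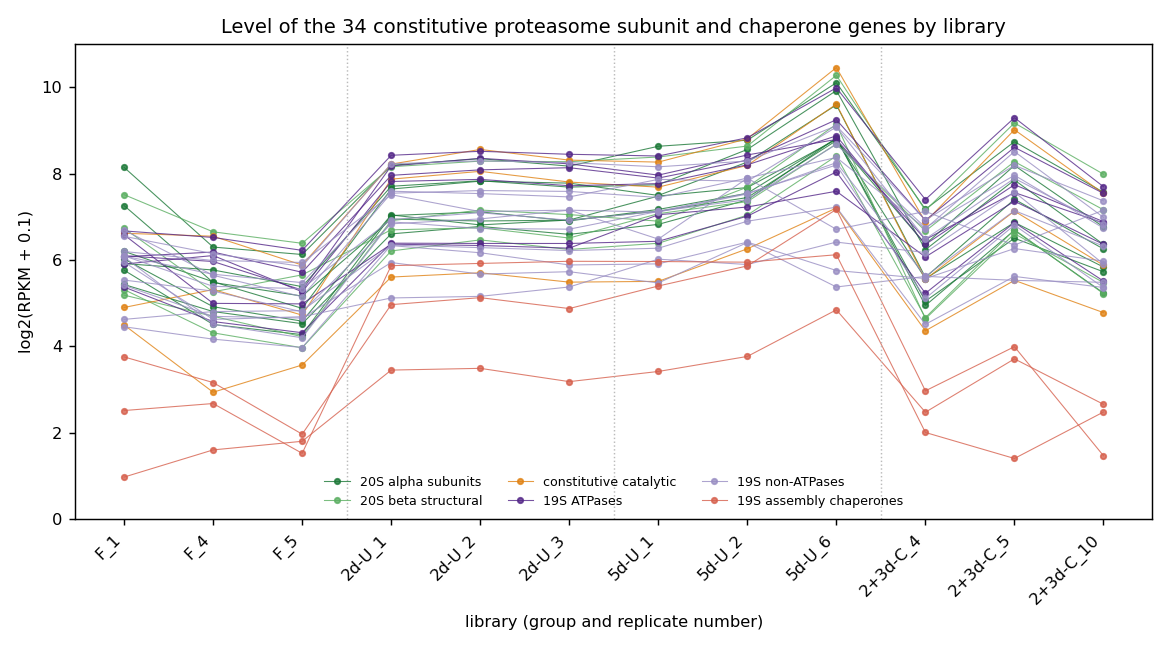
Level of each of the 34 constitutive genes in each library, as log2(RPKM + 0.1), with the libraries set out by group and the lines colored by the part of the proteasome. Nearly all lines step up from F to 2d-U and down from 5d-U to 2+3d-C, and replicate 6 of 5d-U and replicate 5 of 2+3d-C stand high within their groups. By class median the assembly chaperones lie lowest, although single chaperone lines cross those of other classes.

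Culture for 2 days came with higher RNA of nearly the whole complex. Against F, 27 of the 34 constitutive genes were higher and 0 lower in 2d-U, where 10.6% of tested genes were higher and 33.3% lower. Their median log2 fold change was 1.76, against -1.63 over all tested genes and 0.09 over the 10764 that averaged 5 CPM or more. All parts of the complex took part: 5 of 7 alpha subunits, 2 of 4 structural beta subunits, the 3 catalytic subunits, 5 of 6 ATPases, 9 of 11 non-ATPases and the 3 chaperones. Psma3, Psma6, Psmb2, Psmb4, Psmc6, Psmd1 and Psmd11 were not called. Without F replicate 5 the count was 13 and without F replicate 4 it was 15, where 1276 of 22743 and 1552 of 23830 tested genes were higher. The median log2 fold change of the members ranged from 1.55 to 2.00 when libraries were left out in turn.

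Psmb5, the chymotrypsin-like catalytic subunit, had the largest rise among the 31 subunits. It lay at 29.8, 39.8 and 26.4 RPKM in F and at 234, 265 and 224 RPKM in 2d-U, with no overlap. The log2 fold change was 2.91 ± 0.55 (SE, adjusted p = 0.00172). In 5d-U its level was 206, 292 and 780 RPKM, and in 2+3d-C it was 46.9, 140 and 58.8 RPKM, so all compressed libraries lay above F and below both uncompressed groups. Psmc1, an ATPase of the cap, moved in the same order, from 39.4 to 68.4 RPKM in F to 289 to 327 RPKM in 2d-U (log2 fold change 2.43 ± 0.41, adjusted p = 0.000839).

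At 5 days without compression the RNA of most members was also above F. Against F, 30 of the 34 were higher and 0 lower, where 11.6% of tested genes were higher and 8.9% lower, with a median log2 fold change of 2.60 against -0.41 over all tested genes. The exceptions were Psma3, Psmd1, Psmd2 and Psmd11. Between 5d-U and 2d-U no constitutive member was called in either direction by edgeR's quasi-likelihood test, where 1.87% of tested genes were higher and 0.243% lower in 5d-U, and 4 had an unadjusted p under 0.05. DESeq2 called 0 members as well, where it called 3109 higher and 404 lower of 20504 tested genes. The median log2 fold change was 0.91 over the members, 1.13 over all tested genes and 0.36 over those that averaged 5 CPM or more. For the members it was 0.31 without 5d-U replicate 6 and -0.04 without the pair of libraries with low TMM factors.

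In compressed cells the RNA of part of the complex was lower than in 5d-U cells of the same age in culture. Of the 34 genes 13 were lower and 0 higher in 2+3d-C, where 13.4% of tested genes were lower and 9.14% higher. The median log2 fold change of the members was -1.25, against -1.05 over all tested genes and -0.06 over those that averaged 5 CPM or more, and 33 of the 34 had a negative value. The 20S core held 8 of the 13, namely Psma1, Psma2, Psma4, Psma5, Psma7, Psmb3, Psmb5 and Psmb7, and the median over its 14 genes was -1.82. From the cap side the called genes were Psmc1, the deubiquitinating subunit Psmd14, Psmd13 and the chaperones Psmd5 and Psmd10, with a median of -1.04 over 20 genes. The called values ran from -1.40 (Psmc1) to -4.01 (Psmd5), and the other 21 from -1.74 (Psmb1, adjusted p = 0.0522) to 0.62 (Psmd11, adjusted p = 0.323), the 1 positive value. By class, 5 of 7 alpha subunits, 1 of 4 structural beta subunits, 2 of 3 catalytic subunits, 1 of 6 ATPases, 2 of 11 non-ATPases and 2 of 3 chaperones were lower. The count turned on single libraries: it was 4 without 5d-U replicate 6, 4 without 2+3d-C replicate 4, 6 without 2+3d-C replicate 10 and 24 without 2+3d-C replicate 5. In these fits 1727 of 27039, 2280 of 27025, 2238 of 27891 and 3045 of 27911 tested genes were lower, respectively. Without both libraries of low TMM factor 9 members were lower, where 1785 of 27451 tested genes were.

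**Figure D2:**
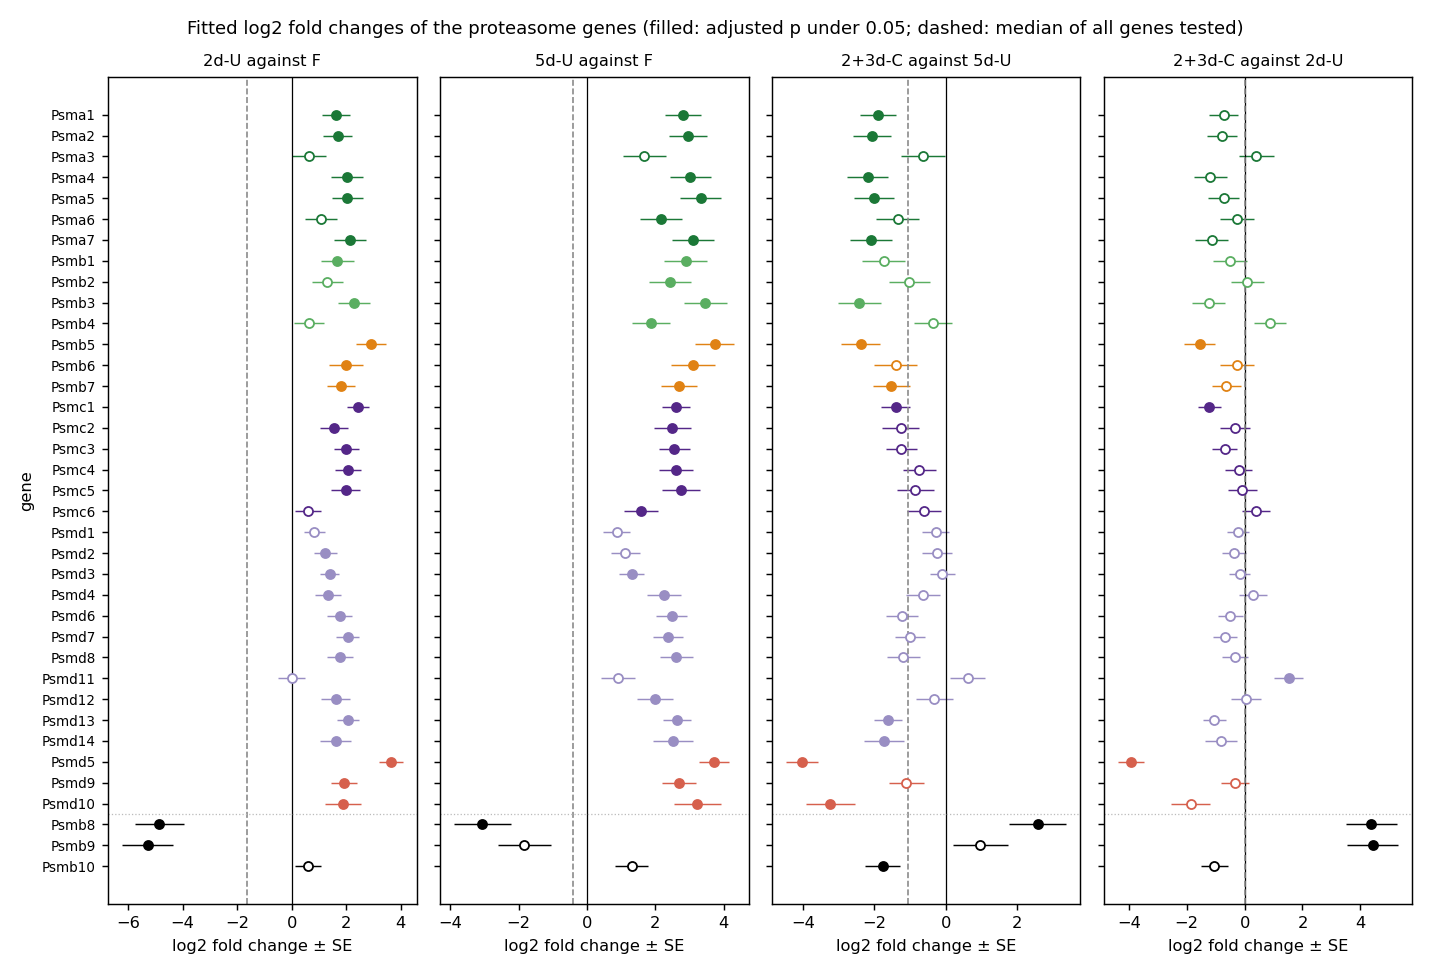
Fitted log2 fold change with its standard error for the 34 constitutive genes and the 3 immunoproteasome genes (bottom rows) in 4 comparisons. Filled points passed an adjusted p of 0.05, the solid line is 0 and the dashed line is the median of all tested genes. In 2d-U and 5d-U against F nearly all constitutive points are filled and right of 0, and in 2+3d-C against 5d-U Psmd5 lies farthest left.

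Among the chaperones that assemble the base of the cap, Psmd5 and Psmd10 had the steepest falls of the 34 constitutive genes in 2+3d-C against 5d-U. Psmd5 (chromosome 2, 34849734 to 34874968, minus strand, mm10), which holds the ATPase Psmc2 and its partners before they join the complex, was at 5.62, 6.30 and 2.78 RPKM in F and at 58.4, 60.5 and 62.6 RPKM in 2d-U. It stayed at 62.4, 61.7 and 69.6 RPKM in 5d-U and was at 3.93, 2.55 and 5.49 RPKM in 2+3d-C. Both uncompressed groups were tight and far above the other groups, and F and 2+3d-C overlapped. Compressed against 5d-U cells the log2 fold change was -4.01 ± 0.45 (adjusted p = 4.1e-05) and against 2d-U cells -3.92 ± 0.44 (adjusted p = 3.94e-05). Against F it was -0.30 ± 0.40 (adjusted p = 0.636).

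The calls of Psmd5 held in all 21 other settings for each of the 4 comparisons in which it was called, and the highest adjusted p among them was 0.024. Its exons overlap no other gene, and replicate 6 of 5d-U did not stand out. Psmd10, also known as gankyrin, was at 13.4, 8.87 and 3.82 RPKM in F, 29.3 to 34.9 RPKM in 2d-U cells, 42.1, 58.1 and 144 RPKM in 5d-U cells and 7.75, 15.8 and 2.67 RPKM in 2+3d-C, so that F and 2+3d-C overlapped below both uncompressed groups. It fell by 3.23 on the log2 scale in 2+3d-C against 5d-U (SE 0.69, adjusted p = 0.00435). Psmd9, the third of these chaperones, was at 1.87 to 3.39 RPKM in F, at most 11.2 in 2d-U cells, 10.6 to 28.7 in 5d-U cells and 5.47 to 13.0 in 2+3d-C, and its log2 fold change against 5d-U was -1.10 ± 0.48 (adjusted p = 0.0984).

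The chaperones of the 20S core carry other names. Of the 5 that were tested, 4 were higher in 2d-U than in F and all 5 in 5d-U than in F, against 10.6% and 11.6% of tested genes. In 2+3d-C 4 were lower than in 5d-U and 3 lower than in 2d-U, against 13.4% and 8.63% of tested genes, and 0 were called against F, where 1 had an unadjusted p under 0.05. Psmg1, which pairs with Psmg2 to seed the alpha ring, was at 4.23 to 9.02 RPKM in F, 72.7 to 93.8 RPKM in 2d-U cells, 71.2 to 216 RPKM in 5d-U cells and 6.91 to 10.7 RPKM in 2+3d-C. Its log2 fold change in 2+3d-C against 5d-U was -3.85 ± 0.52 (adjusted p = 0.00019). Psmg2 (-2.47, adjusted p = 0.00231), Psmg3 (-2.45, adjusted p = 0.0104) and Pomp, which guides the beta ring (-1.70, adjusted p = 0.0464), were also lower, and Psmg4 was not called (-1.25, adjusted p = 0.13).

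**Figure D3:**
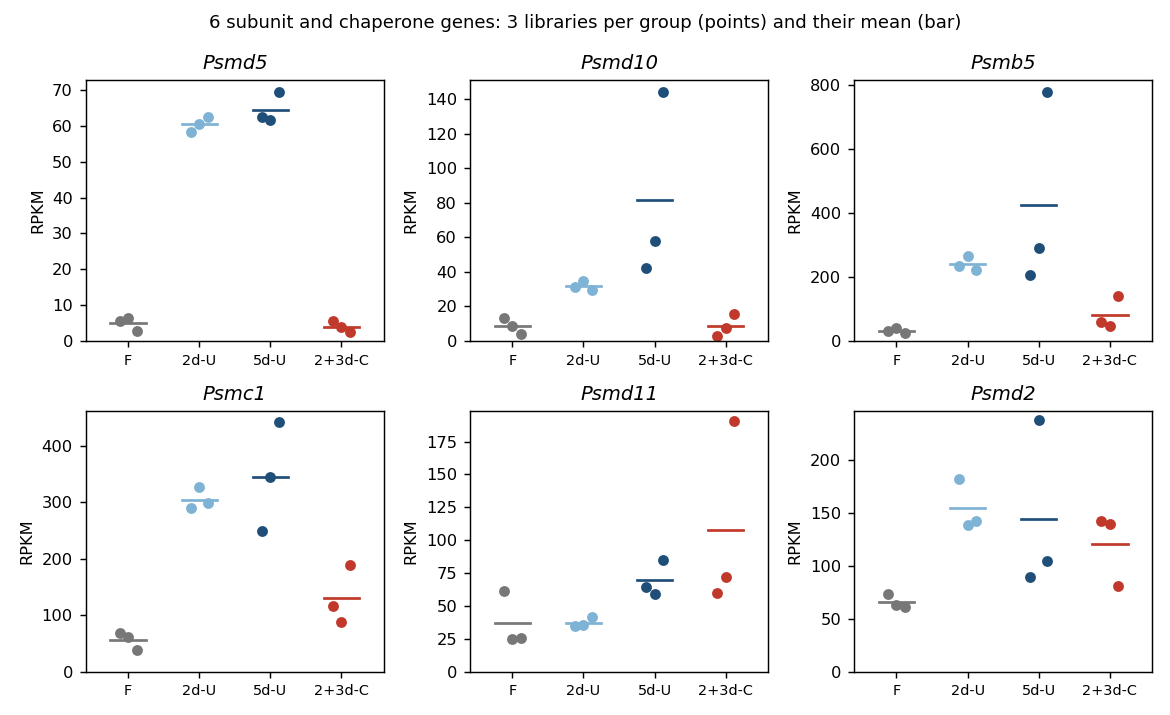
RPKM of 6 genes in each of the 3 libraries per group (points) with the group mean (bar), on axes that start at 0. Psmd5, Psmd10, Psmb5 and Psmc1 are low in F and 2+3d-C and high in 2d-U and 5d-U, while Psmd11 and Psmd2 do not follow that order.

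Against 2d-U, the state from which compression started, fewer members differed. Psmd5, Psmc1 (-1.22, adjusted p = 0.0373) and Psmb5 (-1.56, adjusted p = 0.0439) were lower in 2+3d-C and Psmd11 was higher, where 8.63% of tested genes were lower and 16% higher. The median was -0.42 over the 34 genes, 0.00 over all tested genes and 0.20 over those that averaged 5 CPM or more. With library sizes that were not TMM-scaled, 17 members were lower and 0 higher with a median of -1.09, and over all genes 3143 were lower and 2540 higher in place of 1954 and 3619. Without both libraries of low TMM factor 14 members were lower and 0 higher, where 2317 of 27451 tested genes were lower and 2950 higher. The lower count of members was 8 without 2+3d-C replicate 5 and 5 without F replicate 1, where 2037 of 27911 and 2096 of 27750 tested genes were lower. Psmc1 and Psmb5 were not called when any single 2d-U library was left out (adjusted p from 0.0814 to 0.13), nor without 2+3d-C replicate 4 (0.162 and 0.159), 2+3d-C replicate 10 (0.129 and 0.132) or F replicate 4 (0.0507 and 0.0546). Psmc1 was also lost without 5d-U replicate 2 (0.0515) and Psmb5 without F replicate 5 (0.055). Psmc1 was lost with no filter on low counts too (0.0624), and both genes with a replicate block.

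Psmd11 is a subunit of the cap's lid that holds lid and core together. Its level was 61.7, 24.6 and 25.7 RPKM in F, 34.7, 35.6 and 41.4 in 2d-U cells, 64.8, 59.5 and 85.2 in 5d-U cells and 72.0, 190 and 60.0 in 2+3d-C. All 2+3d-C libraries lay above all 2d-U libraries, and replicate 5 was far above the other compressed libraries. The log2 fold change between these groups was 1.53 ± 0.50 (adjusted p = 0.0365), and it was 0.82 (adjusted p = 0.217) without 2+3d-C replicate 5. It was also not called without 2d-U replicate 1, 2 or 3, with adjusted p of 0.117, 0.118 and 0.0901. The same held without TMM (0.137), without both libraries of low TMM factor (0.5) and with a replicate block (0.0757).

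The RNA of most members was nominally above F in compressed cells. Psmc4 (1.86 ± 0.48, adjusted p = 0.0358) and Psmc5 (1.90 ± 0.53, adjusted p = 0.0471), both ATPases, were higher in 2+3d-C and 0 members were lower, where 1.94% of tested genes were higher and 4.47% lower. The median log2 fold change was 1.21 over the members against -0.76 over all tested genes and 0.19 over those that averaged 5 CPM or more, and 20 of the 34 had an unadjusted p under 0.05. The count of 2 called higher became 19 without F replicate 1, 5 without 2+3d-C replicate 4 and 1 without any of the 2d-U libraries or 2+3d-C replicate 10. Without F replicate 1, 1185 of 27750 tested genes were higher and 8878 lower, and without 2+3d-C replicate 4, 519 of 27025 were higher. The count of members was 0 without 2+3d-C replicate 5, F replicate 4 or F replicate 5, where 160 of 27911, 26 of 23830 and 40 of 22743 tested genes were higher. DESeq2 called 7 members higher, where it called 887 higher and 4428 lower of 21463 tested genes.

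Across the 12 libraries most constitutive genes moved together. The correlation of a gene's log2 CPM with the mean of the other constitutive genes had a median of 0.961 and reached 0.993 for Psmc2. The lowest values were 0.506 for Psmd11, 0.532 for Psmd2, 0.669 for Psmd1, 0.704 for Psmd5 and 0.762 for Psmd3. For other genes that averaged 5 CPM or more, the median correlation with the constitutive mean was 0.076, and 30.95% were above the lowest member. These values are a description, since all genes share the same libraries and their scaling. Psmd11, Psmd2, Psmd1, Psmd5 and Psmd3 have long exon lengths (6383, 4038, 7265, 7230 and 4967 bases). Psmc2 (5031) and Psmd9 (7248) are also long, with correlations of 0.993 and 0.916. Over 10764 genes, a library's difference from its group partners varied with exon length. Spearman values were -0.406 in 5d-U replicate 6, -0.438 in 2+3d-C replicate 5 and 0.441 in 2+3d-C replicate 4. The part of exon length was not tested. Psmd1, Psmd2 and Psmd3 are large subunits of the cap, and in 2+3d-C against 5d-U their log2 fold changes were -0.28, -0.25 and -0.09, with adjusted p of 0.574, 0.655 and 0.853. Psmd2 stood at 61.5 to 73.3 RPKM in F, 139 to 182 in 2d-U cells, 89.5, 238 and 105 in 5d-U cells and 139, 81.2 and 142 in 2+3d-C, and the cultured groups overlapped.

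Among 10637 other genes that averaged 5 CPM or more, those most like the mean profile of the constitutive genes were Gm8666 (r = 0.994 over 12 libraries), the glutaredoxin Glrx3 (0.994), the mitochondrial protease Parl (0.992), the respiratory complex III subunit Uqcrfs1 (0.991), the cyclophilin Ppie (0.991), the nuclear transport GTPase Ran (0.990), the acetyltransferase subunit Naa20 (0.990) and Mphosph6 (0.989). Ran, for instance, had 250 to 539 CPM in F, 1273 to 1298 CPM in 2d-U cells, 1342 to 3245 CPM in 5d-U cells and 611 to 1733 CPM in 2+3d-C.

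Of 6 listed regulators of subunit genes 4 were called higher and 0 lower in 2+3d-C against 5d-U, where 9.14% of tested genes were higher. Nfe2l1 (Nrf1), which restores subunit transcription when the proteasome is inhibited, was at 27.2, 39.6 and 55.0 RPKM in F, 17.5, 11.2 and 21.6 in 2d-U cells, 5.09, 13.3 and 6.15 in 5d-U cells and 55.3, 11.1 and 57.7 in 2+3d-C. It was higher in 2+3d-C cells than in 5d-U (log2 fold change 2.34 ± 0.59, adjusted p = 0.0117), although 2+3d-C replicate 5 lay within the 5d-U range. Nfe2l2 (Nrf2), the oxidative stress factor, was also higher (1.86 ± 0.37, adjusted p = 0.00278), as were Sel1l (1.44, adjusted p = 0.0133) and Syvn1 (4.23, adjusted p = 0.000222), which extract proteins from the endoplasmic reticulum. Ddi2 and Ngly1, which release and activate Nrf1, were not called (0.36 and 0.00, adjusted p = 0.573 and 0.997). In 2d-U against F 2 of the 6 were lower, a share like the 33.3% of all tested genes.

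Promoter sequences from RefSeq (GRCm38.p6) were found for 32 of the 39 members, 28 of them constitutive, and the 250 bases before each start were searched on both strands. The letters TGACNNNGC, the core of the antioxidant response element that Nrf1 and Nrf2 bind, were in 5 of the 28 (Psmb5, Psmb6, Psmc6, Psmd9 and Psmd12) and in 10.2% of 32851 promoters. The ETS site CCGGAAG was in 8 of the 28 (Psmc1, Psmc2, Psmc6, Psmd2, Psmd4, Psmd6, Psmd11 and Psmd12) and in 6.91% of all promoters. CCAAT was in 11 of the 28 and in 33.8% of all, and the NF-kB site, searched as GGG and CC with any 5 bases between, in 15 and in 45.8%. A match is a description of the letters and not a bound site. The stretches before the starts of Psmb5 and Psmb6, a pair of catalytic subunits, and of the cap genes Psmd4 and Psmd11, of which Psmd11 departs from the shared pattern, are shown 5′ to 3′ on the gene's own strand, with the antioxidant element (Psmb5, Psmb6) or the ETS site (Psmd4, Psmd11) in capitals.
Psmb5, chr14:54618023-54618115, minus strand: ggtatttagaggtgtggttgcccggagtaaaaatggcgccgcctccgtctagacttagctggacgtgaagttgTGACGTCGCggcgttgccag
Psmb6, chr11:70525237-70525356, plus strand: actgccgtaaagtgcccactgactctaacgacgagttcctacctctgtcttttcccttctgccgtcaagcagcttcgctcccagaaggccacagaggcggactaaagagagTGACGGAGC
Psmd4, chr3:95042675-95042794, minus strand: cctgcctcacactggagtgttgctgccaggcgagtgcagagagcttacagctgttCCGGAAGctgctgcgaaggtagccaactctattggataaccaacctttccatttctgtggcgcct
Psmd11, chr11:80428495-80428614, plus strand: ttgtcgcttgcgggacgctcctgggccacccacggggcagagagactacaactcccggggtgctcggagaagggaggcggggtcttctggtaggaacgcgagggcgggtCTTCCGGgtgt

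In 2d-U against F and in 2+3d-C against 2d-U, Psmb8 and Psmb9 moved opposite to the median of the constitutive genes. In 5d-U against 2d-U their log2 fold changes (1.80 and 3.46) were positive, as was the constitutive median (0.91). Psmb8 (chromosome 17, 34197721 to 34201454, plus strand, mm10) was at 13.9, 19.2 and 13.1 RPKM in F and at 0.681, 0.428 and 0.478 RPKM in 2d-U. It was at 1.97, 0.268 and 3.34 RPKM in 5d-U and at 5.32, 23.0 and 4.94 RPKM in 2+3d-C. Every 2+3d-C library lay above every uncompressed library, and the F values lay within the 2+3d-C range. In 2d-U against F the log2 fold change was -4.86 ± 0.89 (adjusted p = 0.00137), and in 2+3d-C against 2d-U it was 4.38 ± 0.87 (adjusted p = 0.0025). Against F, 5d-U differed by -3.06 ± 0.82 (adjusted p = 0.0152) and 2+3d-C by -0.48 ± 0.76 (adjusted p = 0.697). Without 2+3d-C replicate 5 the log2 fold change of 2+3d-C against F was -1.57.

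Against 5d-U the rise of Psmb8 was 2.58 ± 0.81 (adjusted p = 0.0331). It was not called without 5d-U replicate 1 (adjusted p = 0.0618), 5d-U replicate 2 (0.0704) or 2+3d-C replicate 5 (0.16), nor without both libraries of low TMM factor (0.0663). The call was also lost with the libraries of the 2 groups alone (0.0848) and with a replicate block (0.149). Of the Psmb8 exon bases 14.7% are shared with the annotated gene Gm20496, so reads there cannot be told apart.

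Psmb9, its neighbor on chromosome 17 (34181987 to 34187764, minus strand), was at 4.77, 2.97 and 2.96 RPKM in F and fell to 0.113, 0.0962 and 0.0604 RPKM in 2d-U, which were 22, 9 and 10 reads. It was at 1.09, 0.295 and 1.63 RPKM in 5d-U cells and 1.42, 3.03 and 1.46 RPKM in 2+3d-C, so the compressed and the 5d-U libraries overlapped. The log2 fold change was -5.29 ± 0.92 (adjusted p = 0.000971) in 2d-U against F and 4.43 ± 0.89 (adjusted p = 0.00254) in 2+3d-C against 2d-U. In 2+3d-C against 5d-U it was 0.97 ± 0.77 (adjusted p = 0.332). The rise from 2d-U to 5d-U (3.46, adjusted p = 0.0491) was lost without any 1 of 8 libraries, all of 2d-U and F and replicates 1 and 6 of 5d-U, with adjusted p of 0.0786 to 0.181. It was also lost without TMM (0.0884), with no filter on low counts (0.0635), with the 2 groups alone (0.0875) and with silent-family reads subtracted (0.0869). The same held without both libraries of low TMM factor (0.184) and with a replicate block (0.259).

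Psmb10 (chromosome 8, 105935735 to 105938444, minus strand) did not share the drop of Psmb8 and Psmb9 in 2d-U. It was at 12.3, 17.0 and 15.0 RPKM in F, 21.9, 26.1 and 18.7 in 2d-U cells, 24.8, 24.9 and 60.1 in 5d-U cells and 9.21, 16.0 and 7.28 in 2+3d-C. Compressed libraries were all below the uncompressed ones and overlapped with F. It was lower after compression than in 5d-U (-1.76 ± 0.49, adjusted p = 0.0191), but not without 5d-U replicate 6 (adjusted p = 0.143), 2+3d-C replicate 4 (0.0683), 2+3d-C replicate 10 (0.0753) or both libraries of low TMM factor (0.059). Psmb10 also lost this call with no filter on low counts (0.107), with the 2 groups alone (0.0507) and with a replicate block (0.507). Its other comparisons were not called, and its correlation with the constitutive profile was 0.688, against -0.579 for Psmb8 and -0.460 for Psmb9.

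**Figure D4:**
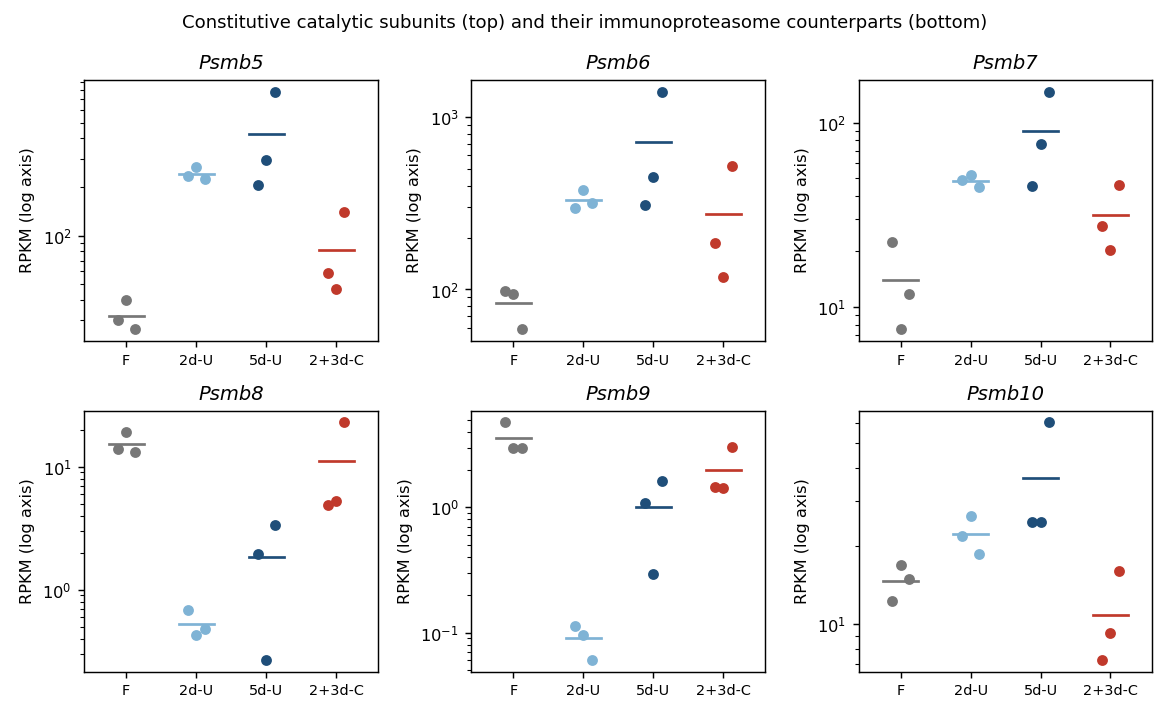
RPKM on log axes of the constitutive catalytic subunits (top) and the immunoproteasome subunits that replace them (bottom), with 3 libraries per group (points) and their mean (bar). By mean, Psmb8 and Psmb9 are highest in F, lowest in 2d-U and higher again in 2+3d-C, whereas Psmb5, Psmb6 and Psmb7 are lowest in F.

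Each inducible subunit was also set against the one it replaces, as a ratio of RPKM after adding 0.1 RPKM to both. Psmb8 stood at 46.8 to 49.9% of Psmb5 in F, 0.199 to 0.334% in 2d-U cells, 0.126 to 1.00% in 5d-U cells and 8.55 to 16.5% in 2+3d-C. The F values were nearly equal, and the 2+3d-C values lay between F and both uncompressed groups with no overlap. Psmb9 stood at 3.28 to 5.18% of Psmb6 in F, 0.0505 to 0.0716% in 2d-U cells, 0.0883 to 0.387% in 5d-U cells and 0.605 to 1.29% in 2+3d-C, and no groups overlapped. Without the added 0.1 RPKM the Psmb9 share was 0.0190 to 0.0381% in 2d-U cells, 0.0659 to 0.355% in 5d-U cells and 0.586 to 1.21% in 2+3d-C. Psmb10 was at 54.8, 222 and 127% of Psmb7 in F and at 26.8 to 54.8% in the cultured groups, which overlapped.

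For the log2 ratios, exact permutation tests over the 369600 assignments of 12 libraries to 4 groups gave p = 0.0003896 for Psmb8 to Psmb5, p = 6.494e-05 for Psmb9 to Psmb6, which is the smallest p this design allows, and p = 0.01416 for Psmb10 to Psmb7. Adjusted over the 3 ratios they were 0.0005844, 0.0001948 and 0.01416, and with no added RPKM, where library scaling cancels, the unadjusted p were 0.0003896, 6.494e-05 and 0.01429. A test of 1 group against another cannot go below 0.1 with 3 libraries each. Summed over the 3 pairs, the inducible subunits made up 17.1 to 24.2% of catalytic subunit RNA per length in F, 3.17 to 3.77% in 2d-U cells, 2.71 to 4.75% in 5d-U cells and 4.78 to 7.93% in 2+3d-C.

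The promoter of Psmb8 held TTCNNNGAA, the palindrome of gamma interferon activation sites, and it was in 0 of the 28 constitutive promoters and 7.02% of all promoters. Neither Psmb9 nor Psmb10 had it within 250 bases. The interferon-stimulated response element, searched as a pair of GAAA with any 2 bases between, was in 3 of the 28 constitutive promoters (Psmb3, Psmd4 and Psmd9), in 0 of the immunoproteasome promoters and in 2.98% of all. The stretch around the Psmb8 match, before the RefSeq start and within an exon of a longer GENCODE transcript of Psmb8, is shown with it in capitals.
Psmb8, chr17:34198087-34198116, plus strand: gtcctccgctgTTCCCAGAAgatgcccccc

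Most listed genes of the same interferon-driven pathway moved with Psmb8 and Psmb9. Of 9 such partners, 7 were lower in 2d-U than in F, where 33.3% of tested genes were lower. In 2+3d-C 8 were higher than in 2d-U and 6 higher than in 5d-U, where 16% and 9.14% of tested genes were higher. Between 2+3d-C and F 0 were called, where 1.94% of tested genes were higher and 4.47% lower. There 1 partner had an unadjusted p under 0.05, and the log2 fold changes ran from -1.805 to 1.847. Tap1, which with Tap2 pumps the cut peptides into the endoplasmic reticulum, was at 14.0, 34.9 and 29.1 RPKM in F, 1.48, 0.414 and 0.335 in 2d-U cells, 2.23, 1.99 and 0.901 in 5d-U cells and 22.8, 19.9 and 8.56 in 2+3d-C. Tap1 shares exon bases with Psmb9, 5.79% of the length of Psmb9.

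Tapbp, which links that pump to MHC class I, lay at 72.8 to 118 RPKM in F, 3.75 to 5.29 in 2d-U cells, 2.78 to 5.55 in 5d-U cells and 77.6 to 111 in 2+3d-C. Its log2 fold change in 2+3d-C against 5d-U was 4.54 ± 0.44 (adjusted p = 1.52e-05). The transcription factor Irf1 was higher as well (2.84, adjusted p = 0.00194), and B2m was not called there (1.68, adjusted p = 0.063). Psme1 and Psme2, the interferon-inducible activator that caps the core, were not called in 2d-U against F (-0.55 and -0.38, adjusted p = 0.422 and 0.591). In 2+3d-C against 2d-U both values were positive, and Psme1 was called (1.65, adjusted p = 0.0434) while Psme2 was not (1.35, adjusted p = 0.0939).

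**Figure D5:**
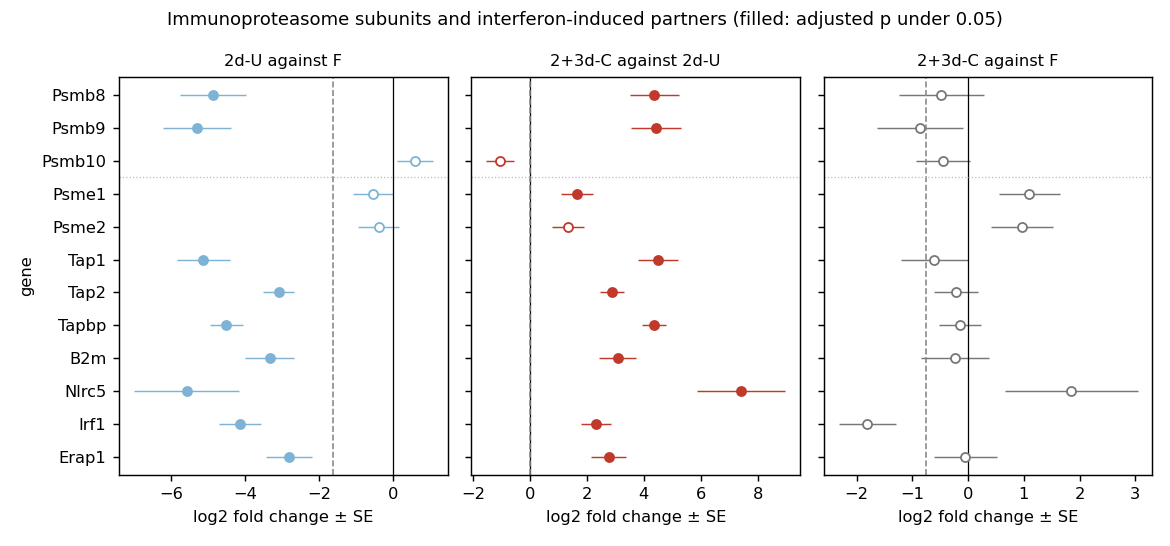
Fitted log2 fold change with standard error of the 3 immunoproteasome genes (above the dotted line) and 9 interferon-induced partners in 3 comparisons. Filled points passed an adjusted p of 0.05 and the dashed line is the median of all tested genes. Psmb8, Psmb9 and 7 partners lie far left in 2d-U against F and far right in 2+3d-C against 2d-U, and no gene is filled in 2+3d-C against F.

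Markers of several other cell types were also high in F, low in the uncompressed groups and mostly intermediate in 2+3d-C. The summed level of 13 immune cell markers was 1013 to 3030 CPM in F, 3.92 to 13.1 in 2d-U cells, 16.8 to 121 in 5d-U cells and 39.1 to 131 in 2+3d-C, so 5d-U and 2+3d-C overlapped. Of these 13, 7 were called higher and 1 lower in 2+3d-C against 2d-U, where 16% of tested genes were higher and 8.63% lower. Against 5d-U 2 were higher and 2 lower in 2+3d-C, where 9.14% of tested genes were higher and 13.4% lower. Ptprc (CD45), a marker of all leukocytes, had no reads in the 2+3d-C and 2d-U libraries, and 3 to 5 of the 13 markers were at 0 in each 2+3d-C library, but Cd74 (191 to 691 reads), H2-Ab1 (171 to 423 reads) and Lyz2 (114 to 1491 reads), markers of antigen-presenting and myeloid cells, were present in all of them. Endothelial markers (7 genes) summed to 961 to 1395 CPM in F, 11.2 to 13.9 in 2d-U cells, 7.77 to 37.0 in 5d-U cells and 224 to 261 in 2+3d-C, and fibroadipogenic markers (5 genes) to 1942 to 5290, 0.704 to 11.4, 8.53 to 47.2 and 427 to 891 CPM. None of the 7 endothelial markers was at 0 in a 2+3d-C library. Smooth muscle markers (4 genes) summed to 310 to 576 CPM in F, at most 14.3 CPM in both uncompressed groups and 80.4 to 124 CPM in 2+3d-C. Erythroid markers (3 genes) summed to 129 to 580 CPM in F, at most 0.293 CPM in both uncompressed groups and 21.0 to 283 CPM in 2+3d-C, and all 3 were called higher in 2+3d-C than in either uncompressed group. Mature myofiber markers (4 genes) did not follow this order. They summed to 22.6 to 2030 CPM in F, 42.7 to 77.6 in 2d-U cells, 153 to 1465 in 5d-U cells and 49.0 to 133 in 2+3d-C. By median level the constitutive genes had the opposite order to most of these lists, lowest in F and higher in the uncompressed groups than in 2+3d-C. The part of these cells in the levels of Psmb8, Psmb9, their partners and the constitutive genes was not tested.

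Other parts of the ubiquitin system were mixed. Uchl5, a deubiquitinase of the cap, was lower after compression than in 5d-U (-2.85, adjusted p = 0.00371), as was Sem1, the smallest cap subunit (-2.17, adjusted p = 0.0202), while the ubiquitin receptor Adrm1 was not called (0.00, adjusted p = 0.997). Adrm1 was higher in 2+3d-C than in F (2.14, adjusted p = 0.0284), as was Psme3, a nuclear activator of the core (1.42, adjusted p = 0.0299). The polyubiquitin gene Ubb was not called in 2+3d-C against 5d-U (0.41, adjusted p = 0.638). Rps27a, which encodes ubiquitin fused to a ribosomal protein, was higher in 2d-U than in F (1.48, adjusted p = 0.0425).

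Of 10 tested shuttle and associated proteins 1, Uchl5, was lower and 1, Ubqln4, was higher in 2+3d-C against 5d-U, about the share of all tested genes (13.4% lower and 9.14% higher), and of 4 tested genes of the p97 complex, which extracts ubiquitinated proteins, 0 were called, where 0 had an unadjusted p under 0.05. Among 5 ubiquitin ligases of muscle Fbxo30 was higher (1.67, adjusted p = 0.0291) and Trim63 (MuRF1), an atrophy ligase, was lower (adjusted p = 0.0316). Trim63 had no reads in the 2+3d-C and 2d-U libraries and was at 0.0611, 2.51 and 1.72 RPKM in 5d-U cells and 0, 5.39 and 1.87 RPKM in F.

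The tissue-restricted members were close to silent. Psma8 had 0 reads in all 2d-U and 2+3d-C libraries and in F replicate 1, 3 to 4 in 5d-U cells and 31 and 24 in F replicates 4 and 5. In the latter libraries 12.8 and 18.1 reads would fall on its exons at the density of the silent gene families. Psmb11 had 0 reads in 2+3d-C and at most 63 in any library, in F replicate 5, where that density gives 34.7. A count of 0 allows up to 3 reads, or 0.0481 to 0.239 CPM over the libraries, and PCR reads without molecular identifiers make this a limit for counting error only.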

How the data were processed

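The authors sequenced SMART-seq v4 cDNA from one end, aligned it to mm10 with the nf-core RNA-seq pipeline, and deposited raw counts per gene, made on exons of GENCODE vM23 with featureCounts 1.6.4 without regard to strand. The merged table was not used. Libraries were grouped by their labels. Tests used edgeR 4.0.16 under R 4.3.3 (filterByExpr, TMM, 1 quasi-likelihood fit over 12 libraries, two-sided, Benjamini-Hochberg adjustment over 22635 genes). RPKM used the exon length in the files and TMM-scaled library sizes, ratios a pseudocount of 0.1 RPKM, and log2 CPM a prior count of 2. By default featureCounts leaves reads on exon bases shared by genes unassigned, which would lower genes such as Psmb5 (12.1% shared) and Psmb7 (11.8%).

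The members and gene lists were chosen with earlier results of these data known. Named genes are all members, all listed genes and the 8 other genes closest to the mean constitutive profile. 4 listed names were not matched in the files. Some listed genes are not reported here. Replicate numbers were not used to pair the libraries. The 6 same-numbered pairs had correlations of -0.424 to 0.0322 between their deviations, and the 48 other pairs -0.436 to 0.478. With 3 libraries per group these values cannot exclude a shared sort. The paper states that each sorted batch was spread at random over its conditions, and the labels do not say which libraries share a batch. The procedure was tested on simulated data. Alternatives were DESeq2 1.42.0, no TMM, 2 other filters, no mitochondrial genes, fits of 2 groups alone, a replicate block, subtraction of silent-family reads, and each library left out. The fit without the pair of libraries with TMM factors under 0.7 and ratios without a pseudocount were added after seeing the data.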

Additional observations from a re-analysis of the deposited data

How the results depend on the processing

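The counts of constitutive genes called in 2+3d-C against 5d-U, 2d-U and F depended on the setting and on single libraries. Counts over all tested genes changed as well, for instance from 3042 to 3446 lower in 2+3d-C against 5d-U without TMM. The cause was not tested. In 2+3d-C against 2d-U the lower count of 3 became 5 with DESeq2, 5 with genes of at least 5 CPM alone, 5 with silent-family reads subtracted, 8 with the libraries of the 2 groups alone, 17 without TMM and 14 without both libraries of low TMM factor, and the higher count of 1 became 0 in the last 2. In 2+3d-C against F the higher count of 2 became 7 with DESeq2, 9 with no filter on low counts, 1 without TMM, 1 with silent-family reads subtracted, and 0 with genes of at least 5 CPM alone or the 2 groups alone. In 2+3d-C against 5d-U the lower count of 13 became 22 without TMM and 9 without both libraries of low TMM factor.

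With each library left out in turn, the lower count ranged from 4 to 24 in 2+3d-C against 5d-U and from 1 to 8 against 2d-U, the higher count from 0 to 1 against 2d-U, from 0 to 19 in 2+3d-C against F, from 13 to 32 in 2d-U against F and from 25 to 32 in 5d-U against F, and the count for any difference from 23 to 31. The replicate block takes libraries of the same number as related, which was not established. With it, counts were 4 for any difference, 1 lower in 2+3d-C against 5d-U, and 1 lower and 0 higher against 2d-U. They were 2 higher in 2d-U against F and 1 higher in 5d-U against F. The permutation p of the ratios stayed under 0.05 in all these settings that apply, from 6.494e-05 to 0.04597.

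Without both libraries of low TMM factor the log2 fold change of Psmb10 in 5d-U against 2d-U was -0.19, opposite to its reported sign, and neither value was called. Without TMM the median of all genes moved from -1.05 to -1.21 in 2+3d-C against 5d-U, from -0.76 to -1.24 against F and from 1.13 to 0.65 in 5d-U against 2d-U. The calls over all genes were then 145 higher and 1209 lower in place of 438 and 1011 in 2+3d-C against F, and 126 and 45 in place of 424 and 55 in 5d-U against 2d-U.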
